A study of Mus musculus with 14 samples.

Results

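The antioxidant enzymes described here are 10 genes taken by name: the glutathione peroxidases Gpx1, Gpx3 and Gpx4, the superoxide dismutases Sod1, Sod2 and Sod3, catalase (Cat), the peroxiredoxins Prdx1 and Prdx2, and thioredoxin (Txn1). They were followed in mammary tumors of MMTV-neu mice, in the transgenic gland beside such tumors and in wild-type gland. Of the 12488 probe sets on the array, 14 were annotated to a gene of this set, 12 of them to that gene alone, and 11 of the 12 passed the filter on dim signals. These 11 probe sets measured 9 of the 10 genes. The array names 8252 genes in all. The rule used gene symbols and no measured value, but the genes were chosen with earlier results of these data known.

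RNA of 14 samples was hybridized to 1-color oligonucleotide arrays, with 1 sample on each array. The groups were 2 tumors of a second set (Tumor_setB), gathered to see whether earlier changes came up again, 5 tumors of the first set (Tumor), 4 glands of MMTV-neu mice taken beside tumor and called preneoplastic by the labels (AdjacentNeu, here adjacent gland), and 3 age-matched wild-type samples (AMWT, here wild-type pools). All groups but the wild-type pools carry the transgene, in which a mouse mammary tumor virus promoter, active mainly in mammary epithelium, expresses neu, the rat form of Erbb2. Each wild-type sample pooled RNA of 5 mice. The pool numbered 40 came from mice of 31 weeks with 87.5% FVB and 12.5% CF-1 background, and pools 41 and 42 came from mice of 41 weeks with 97% FVB and 3% CF-1 background. Ages and strains of the transgenic mice are not given in the sources used here. The labels do not say that the samples of a group came from separate animals, so the p-values speak of the spread among these samples alone, which may be technical. They also do not say whether a tumor and an adjacent gland came from 1 mouse, and no pairing was used. The spread between pools is one between averages of 5 mice.

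The labels also give an array lot. Lot 2001815 held 3 tumors and 2 adjacent glands, lot 2004097 held 2 tumors, lot 2004907 held 2 adjacent glands and 1 wild-type pool, lot 2003877 held 2 wild-type pools and lot 2006609 held both set B tumors. As the labels give it, tumors and wild-type pools never shared a lot, so lot and group are confounded in part. The numbers 2004097 and 2004907 hold the same digits in another order, and it is not known whether they are 1 lot; if so, tumors 50 and 52 would share it with pool 40. Fits with a lot term are given beside calls of the 10 genes that they end and, as counts, beside the gene lists. The trimmed mean intensity was 1501 on every array and the medians ran between 544 and 784. The log2 ratio of 3′ to 5′ control probe sets for actin was 0.14 to 0.21 in set B, 0.08 to 0.76 in tumors, 0.38 to 1.52 in adjacent gland and 0.90 to 1.51 in wild-type pools, so tumors and wild-type pools did not overlap in it. The same ratio for Gapdh did overlap, at -0.25 to 0.43 in tumors and 0.11 to 1.48 in wild-type pools. The part of either ratio in the results was not tested.

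Superoxide is turned into hydrogen peroxide by the superoxide dismutases, and the peroxide is then removed by catalase, glutathione peroxidases and peroxiredoxins. Sod1 works mainly in the cytosol, Sod2 in mitochondria and Sod3 outside the cell. Catalase sits in peroxisomes. Gpx1 is the common cytosolic glutathione peroxidase, Gpx3 is secreted and is the plasma form, and Gpx4 reduces lipid peroxides in membranes; all 3 are selenoproteins. Thioredoxin returns oxidized peroxiredoxins to their active form. In the mouse mammary gland the epithelial ducts lie within a fat pad, so a whole gland holds many adipocytes beside epithelium.

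Gpx3, Sod3, Sod1 and 1 of 2 probe sets of Cat had lower intensities in tumors than in wild-type pools. The other probe set of Cat was 0.41 on the log2 scale and not called, and no enzyme of the set was called higher. A probe set was called at an adjusted p under 0.05 in limma's moderated test, fitted over all 8616 probe sets that passed the filter. At that threshold 4 of the 11 probe sets, from 4 of the 9 measured genes, were lower. Of all probe sets 14.1% were called lower and 29.9% in either direction. With lot as a fixed block 1 of these 4 calls remained, that of Gpx3, and 4.18% of all probe sets were called. Counted by arrays, 4 of the 11 probe sets had every tumor below every wild-type pool, against 16.1% of all probe sets. The median log2 fold change was -0.25 over the 11 probe sets and 0.16 over all probe sets tested. In bulk tissue, fewer cells of a type and less RNA per cell cannot be told apart.

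The sequences before the start sites of 3 of these 4 genes are shown because their intensities fell in the same comparison. They are 250 bases upstream of the RefSeq start on the strand of the gene, in build GRCm38.p6, and 9 of the 10 genes had an entry in that table; Sod3 had none. Capitals mark any of 5 motifs on either strand: the core of the antioxidant response element, TGACNNNGC, which NRF2 binds; the GC box, GGGCGG; the CCAAT box, CCAAT; the TATA box, TATAAA; and the nuclear receptor core site, AGGTCA. Of 32851 mouse promoter windows of the same length, 10.2% held TGACNNNGC, 32.7% held GGGCGG, 33.8% held CCAAT, 12.4% held TATAAA and 14.0% held AGGTCA. The windows lie at chr11:54902604-54902853 on the plus strand for Gpx3, at chr16:90220512-90220761 on the plus strand for Sod1 and at chr2:103485154-103485403 on the minus strand for Cat.
Gpx3: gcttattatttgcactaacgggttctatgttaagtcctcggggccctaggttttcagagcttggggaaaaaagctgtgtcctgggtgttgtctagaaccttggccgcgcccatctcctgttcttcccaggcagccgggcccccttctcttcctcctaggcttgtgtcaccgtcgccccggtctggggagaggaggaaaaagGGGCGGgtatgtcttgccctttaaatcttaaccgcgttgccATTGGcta
Sod1: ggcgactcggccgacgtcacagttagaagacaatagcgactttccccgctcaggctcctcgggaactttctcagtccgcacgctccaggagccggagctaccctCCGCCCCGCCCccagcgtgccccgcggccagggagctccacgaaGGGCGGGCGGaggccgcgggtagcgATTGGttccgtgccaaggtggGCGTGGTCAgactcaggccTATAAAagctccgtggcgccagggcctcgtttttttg
Cat: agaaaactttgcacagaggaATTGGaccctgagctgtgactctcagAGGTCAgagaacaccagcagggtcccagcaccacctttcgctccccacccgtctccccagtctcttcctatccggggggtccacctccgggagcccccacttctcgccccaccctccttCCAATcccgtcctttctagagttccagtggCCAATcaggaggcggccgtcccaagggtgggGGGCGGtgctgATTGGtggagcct

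The Gpx3 window held 1 GC box, 49 to 44 bases before the start, and 1 CCAAT box on the minus strand, 8 to 4 bases before it, with no match to the other 3 motifs. The Sod1 window held the core of the antioxidant response element on the minus strand, 56 to 48 bases before the start, with a TATA box 37 to 32 bases before it, 1 CCAAT box and 4 GC boxes that form 2 overlapping pairs. The Cat window held 4 CCAAT boxes, 1 GC box and 1 nuclear receptor core site. GC content was 55.2% in the Gpx3 window, 66.4% in the Sod1 window and 62.0% in the Cat window, with a median of 52.4% over all windows. These matches describe letters and not bound sites.

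Gpx3, the secreted glutathione peroxidase, was measured by 1 probe set, 101676_at. Its intensity was 1228, 3091, 1673, 2346 and 1072 in the 5 tumors, 14133, 8101, 8335 and 17037 in the 4 adjacent glands, and 42665, 42612 and 42663 in the 3 wild-type pools. Every tumor lay below every adjacent gland, and every adjacent gland lay below every pool. The geometric mean was 1741 in tumors (SD 0.64 on the log2 scale, n = 5), 11292 in adjacent gland (SD 0.54, n = 4) and 42647 in wild-type pools (SD 0.0010, n = 3). Gpx3 was 24.5-fold lower in tumors than in wild-type pools, a log2 fold change of -4.61 ± 0.32 (SE; limma, adjusted p = 4.4e-08). This change was larger in size than that of 99.2% of the probe sets tested. With lot as a fixed block the log2 fold change was -4.37 ± 0.73 (limma, adjusted p = 0.0049); since the labels put the groups in no common lot, that estimate runs through the adjacent glands.

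**Figure D1:**
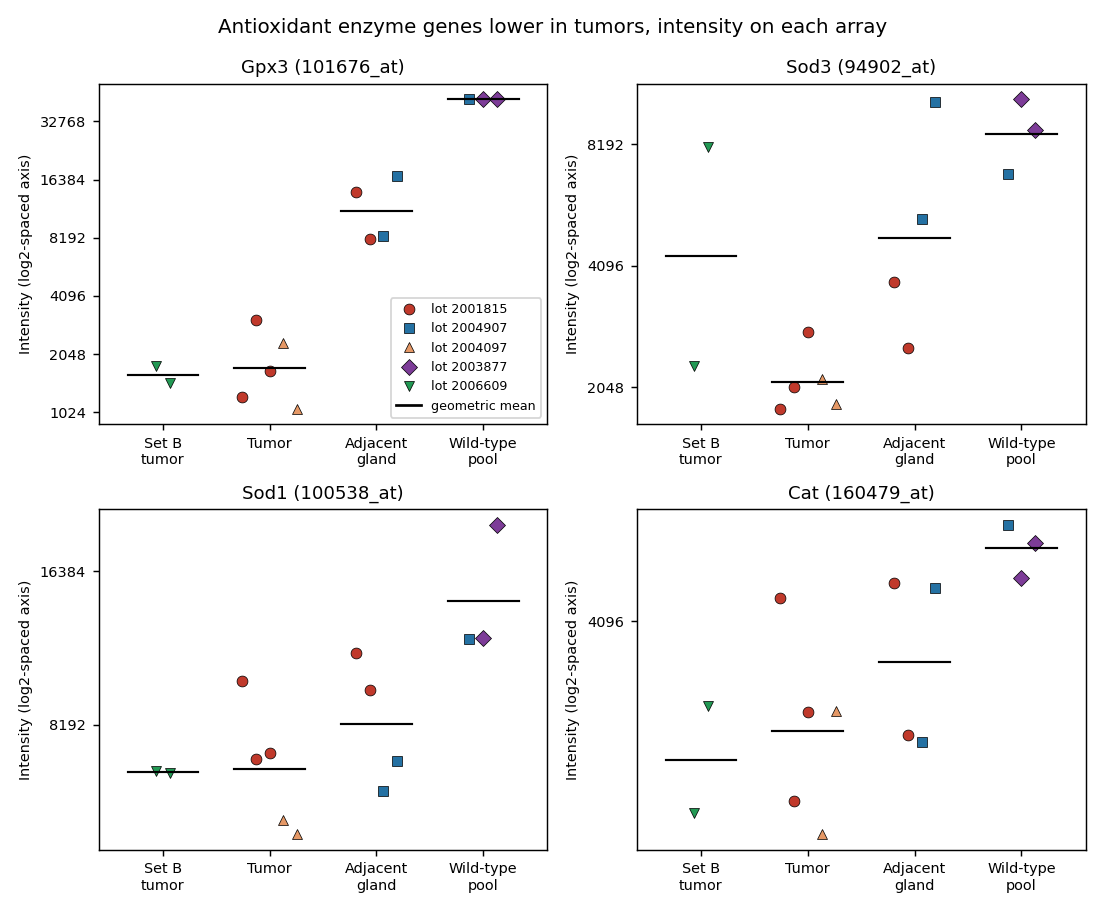
Intensity of Gpx3, Sod3, Sod1 and Cat (probe set 160479_at) on each of the 14 arrays, on a log2-spaced axis, by group, with 1 point for each array, the marker and color giving its array lot, and a bar at the geometric mean of the group. Gpx3 separates tumors, adjacent gland and wild-type pools without overlap, and in the other 3 panels every tumor of the first set lies below every wild-type pool.

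Gpx3 was also lower in the gland beside tumors. It was 3.78-fold lower in adjacent gland than in wild-type pools, a log2 fold change of -1.92 ± 0.33 (SE; limma, adjusted p = 0.014). Among the 9 genes it was the 1 called in this comparison, in which 1.17% of all probe sets were called and 0.453% were called lower. The call was lost in several alternatives while the size stayed close: the adjusted p was 0.39 with lot as a fixed block (log2 fold change -1.84), 0.055 with no filter on dim signals, 0.053 without pool 41 and 0.073 without pool 42 (limma). Lot 2004907, with 2 adjacent glands and pool 40, is the only lot labeled with both groups. The value with the block therefore rests on these arrays, and the log2 fold change within the lot is the same, -1.84.

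Between tumors and adjacent gland Gpx3 differed further, being 6.49-fold lower in tumors (log2 fold change -2.70 ± 0.29, SE; limma, adjusted p = 1.0e-05). The call held when lot entered as a fixed block, at -2.53 (limma, adjusted p = 0.0044). Lot 2001815 is the only lot labeled with both groups, so the fit within it gives the same estimate, -2.53 (limma, adjusted p = 0.043). It is not a second line of evidence. Tumors varied among themselves: the highest, tumor 24, had 3091 and the lowest, tumor 52, had 1072. The SD of Gpx3 over the 5 tumors, 0.64 on the log2 scale, was at the 80.3rd percentile of all probe sets tested. The wild-type pools spanned only 53.5 units of intensity.

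Sod3, the extracellular superoxide dismutase, had intensities of 1816, 2057, 2805, 2146 and 1865 in tumors, 3736, 2569, 5341 and 10421 in adjacent gland, and 6914, 10606 and 8914 in wild-type pools (94902_at). Tumors lay close together and below all pools, whereas adjacent glands reached into the range of tumors at the low end and of pools at the high end. Sod3 was 4.11-fold lower in tumors than in wild-type pools (log2 fold change -2.04 ± 0.40, SE; limma, adjusted p = 0.0012). Its difference between adjacent gland and wild-type pools was not called (-0.85 ± 0.42; limma, adjusted p = 0.36). Tumors against adjacent gland gave -1.19 ± 0.37 with an adjusted p of 0.041 (limma); there 2 of the 9 genes, Gpx3 and Sod3, were called, both lower, against 14.4% of all probe sets called and 9.04% called lower.

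The calls of Sod3 were lost with lot as a fixed block. With lot as a fixed block its log2 fold change was -0.39 ± 0.74 in tumors against wild-type pools (limma, adjusted p = 0.87) and -0.50 in tumors against adjacent gland (adjusted p = 0.61). The latter value is that of lot 2001815, the only lot labeled with both groups, where the 3 tumors and 2 adjacent glands differed by -0.50 (limma, adjusted p = 0.45). With lots 2004097 and 2004907 read as 1 lot, the 2 tumors and 2 adjacent glands there differed by -1.90 (limma, adjusted p = 0.028). Without adjacent gland 51, the highest, the difference between tumors and adjacent gland was -0.82 and was not called (limma, adjusted p = 0.16). Gland 51 was not the only array on which this call rested. It held in 3 of the 9 fits that left out 1 array and was lost in 12 of 23 alternatives.

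Sod1, the cytosolic superoxide dismutase, had intensities of 9994, 7018, 7206, 5319 and 4993 in tumors, 11302, 9566, 6066 and 6946 in adjacent gland, and 12069, 12112 and 20188 in wild-type pools (100538_at). All pools lay above all tumors and all adjacent glands, and pool 42 stood apart from the other two. Sod1 was 2.14-fold lower in tumors than in wild-type pools (log2 fold change -1.10 ± 0.26, SE; limma, adjusted p = 0.0044). With lot as a fixed block the change was -1.28 and was no longer called (limma, adjusted p = 0.11). Adjacent gland against wild-type pools gave -0.80 ± 0.27, which was not called (limma, adjusted p = 0.17), although no adjacent gland reached a pool. Every adjacent gland lay below every pool for 4 of the 11 probe sets, those of Gpx3, Sod1, Sod2 and Cat (160479_at), against 6.82% of all probe sets. Tumors against adjacent gland gave -0.30 ± 0.24 (limma, adjusted p = 0.49).

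Cat, which breaks down hydrogen peroxide, had 2 probe sets, and they disagreed. Probe set 160479_at gave 4393, 2401, 3123, 2173 and 3132 in tumors, 4587, 2918, 2864 and 4521 in adjacent gland, and 5455, 4663 and 5171 in wild-type pools. The pools lay above all other arrays, and tumors overlapped with adjacent gland. The probe set was 1.72-fold lower in tumors than in wild-type pools (log2 fold change -0.78 ± 0.24, SE; limma, adjusted p = 0.021). This call was lost without pool 40 (adjusted p = 0.076), without pool 42 (adjusted p = 0.069) and with lot as a fixed block (-0.79, adjusted p = 0.53; limma). Adjacent gland differed from wild-type pools by -0.49 ± 0.25, which was not called (limma, adjusted p = 0.38).

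Probe set 161877_f_at of Cat ran the other way, at 2906, 3406, 2796, 1141 and 2822 in tumors, 2809, 5207, 1239 and 1905 in adjacent gland, and 1583, 1984 and 1998 in wild-type pools. Its log2 fold change between tumors and wild-type pools was 0.41 ± 0.39 and was not called (limma, adjusted p = 0.45). The root mean square difference between the mean-centered log2 patterns of the Cat probe sets over the 14 arrays was 0.71. Among the 11 probe sets, the pair closest in pattern was this one and that of Gpx1, with a difference of 0.24.

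Gpx1, the cytosolic glutathione peroxidase, had intensities of 4102, 5195, 4890, 1964 and 2658 in tumors, 4235, 7669, 2041 and 2801 in adjacent gland, and 2453, 2323 and 2493 in wild-type pools (94132_at). The 3 high tumors and the 2 high adjacent glands are the 5 arrays of lot 2001815. Gpx1 lay between 4102 and 7669 on that lot and between 1964 and 2801 on the other lots, with no overlap. A fit with a term for lot 2001815, added after this was seen, gave a log2 difference of 1.14 ± 0.19 between lot 2001815 and the others (limma, adjusted p = 0.0079). With that term the difference between tumors and wild-type pools was -0.14, against 0.54 ± 0.37 without it, and neither was called (limma, adjusted p = 0.72 and 0.29).

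The same lot term was past the threshold for 2 further genes of the set. Probe set 161877_f_at of Cat was higher on lot 2001815 by 1.01 ± 0.26 (limma, adjusted p = 0.037), and Sod1 was higher by 0.65 ± 0.17 (adjusted p = 0.039). Of all probe sets, 7.15% were called for this term and 4.82% were higher on that lot. For Gpx3 the term was 0.05 ± 0.30 and for Sod3 it was -0.51 ± 0.36, and neither was called (limma, adjusted p = 0.93 and 0.38). With the term in the fit, Sod1 was lower in adjacent gland than in wild-type pools by -1.13 on the log2 scale and was called (limma, adjusted p = 0.012). This difference was called in 1 of 21 alternatives, that with this term, which was added after the data were seen.

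**Figure D2:**
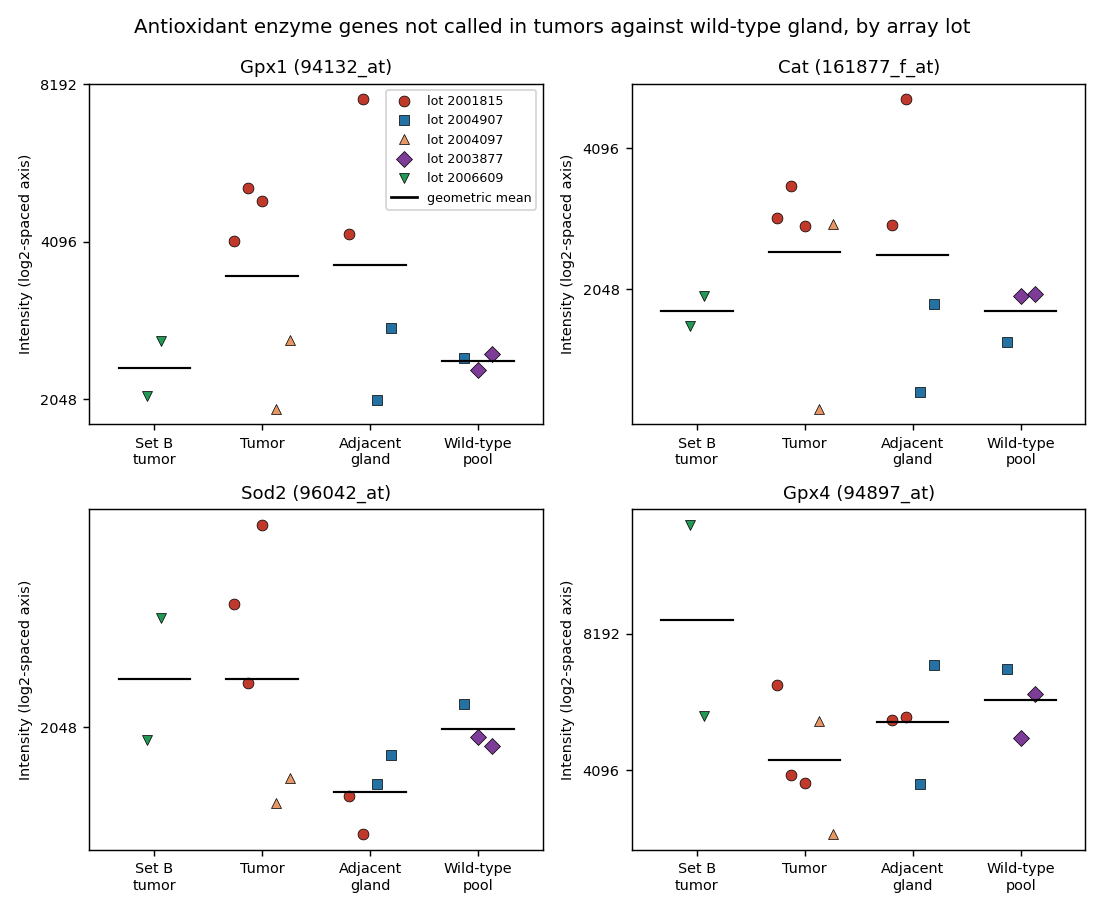
Intensity of Gpx1, Cat (probe set 161877_f_at), Sod2 and Gpx4 on each array, on a log2-spaced axis, by group, with marker and color giving the array lot and a bar at the geometric mean. In the Gpx1 panel the 5 arrays of lot 2001815 lie between 4102 and 7669, above all 9 arrays of the other lots.

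Gpx4, the lipid peroxide reductase, had intensities of 6315, 3989, 3834, 5248 and 2960 in tumors, 5290, 5354, 3820 and 6973 in adjacent gland, and 6855, 4833 and 6018 in wild-type pools (94897_at). The groups overlapped throughout. Its log2 fold change between tumors and wild-type pools was -0.44 ± 0.30 and was not called (limma, adjusted p = 0.29).

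Sod2, the mitochondrial superoxide dismutase, had intensities of 2807, 2293, 3441, 1690 and 1798 in tumors, 1718, 1558, 1772 and 1908 in adjacent gland, and 2172, 1997 and 1953 in wild-type pools (96042_at). Tumors spread on both sides of the pools, and all adjacent glands lay just below the pools. No difference was called: the log2 fold change was 0.19 ± 0.23 in tumors against wild-type pools, -0.23 ± 0.24 in adjacent gland against wild-type pools and 0.42 ± 0.21 in tumors against adjacent gland (limma, adjusted p = 0.56, 0.68 and 0.22). In lot 2001815 alone tumors and adjacent gland differed by 0.78 (limma, adjusted p = 0.18), and with lots 2004097 and 2004907 read as 1 they differed by -0.08.

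Txn1, the cytosolic thioredoxin, ran between 14791 and 31570 in tumors with a median of 23478, between 15070 and 22824 in adjacent gland with a median of 20536, and between 19314 and 23199 in wild-type pools with a median of 20574 (92807_at). The pools lay inside the range of the tumors. The log2 fold change between tumors and wild-type pools was 0.08, with a 95% interval of -0.39 to 0.54 (limma, adjusted p = 0.82).

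Prdx2, an abundant peroxiredoxin of red blood cells and other tissues, had 3 probe sets. Probe set 100331_g_at ran between 17963 and 25760 in tumors, between 15876 and 18012 in adjacent gland and between 16559 and 18856 in wild-type pools, with a log2 fold change of 0.23 ± 0.18 in tumors against wild-type pools (limma, adjusted p = 0.35). Probe set 99608_at gave -0.25 ± 0.39 (limma, adjusted p = 0.66) at intensities of 196 to 636 in tumors and 351 to 522 in wild-type pools. Probe set 100330_at lay under the floor of 101 on all 14 arrays and was not tested. Both probe sets of the peroxiredoxin Prdx1 are annotated also to Gm21399, so the signal cannot be given to either gene; they ran between 23406 and 43204 over all arrays and were not called in any of the 5 comparisons.

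**Figure D3:**
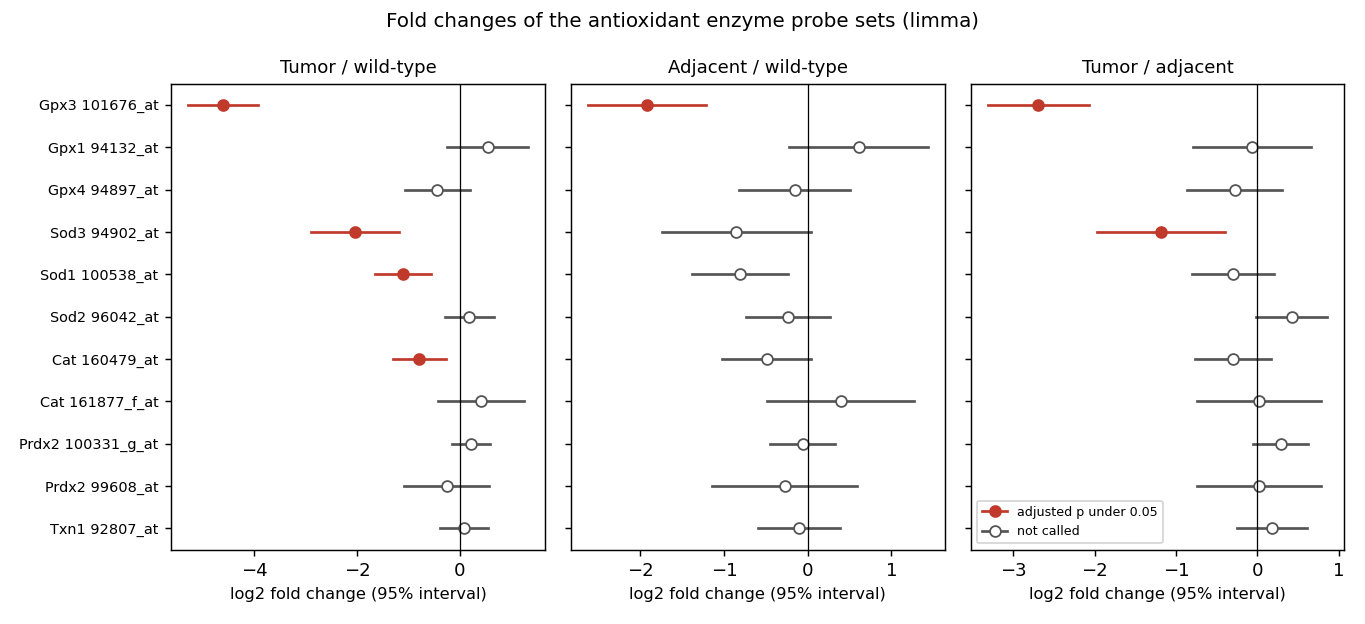
Log2 fold changes of the 11 probe sets with their 95% intervals from limma, for tumors over wild-type pools, adjacent gland over wild-type pools and tumors over adjacent gland; filled red points were called at an adjusted p under 0.05. Gpx3 is the 1 gene called in all 3 panels, at -4.61, -1.92 and -2.70.

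The set B tumors, 2 arrays on a lot of their own, gave low Gpx3 again. Gpx3 was 1779 and 1451 in set B tumors, 26.5-fold lower than in wild-type pools (log2 fold change -4.73 ± 0.40, SE; limma, adjusted p = 7.1e-07). Sod1 was 6647 and 6596 in set B tumors, with -1.12 ± 0.32 (adjusted p = 0.020), and Cat (160479_at) was 2314 and 3179, with -0.91 ± 0.30 (adjusted p = 0.038). These 3 of the 9 genes were called lower, against 12% of all probe sets called lower and 23.2% called in either direction; this comparison shares its pools with that of the first tumors. The call of Cat was lost in 9 of 15 alternatives and that of Sod1 in 4 of 15. Lot and group cannot be told apart for set B.

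Sod3 and Gpx4 differed widely between the set B tumors. Sod3 was 2314 in tumor 80 and 8087 in tumor 81, so tumor 80 lay within the range of the first tumors and tumor 81 within that of the wild-type pools. In set B against wild-type pools it was 2.01-fold lower and not called (limma, adjusted p = 0.17). The log2 fold change was -1.91 without tumor 81 and -0.10 without tumor 80, each resting on the remaining set B tumor. Gpx4 was 14209 in tumor 80, the highest value of all arrays, and 5389 in tumor 81. Its log2 fold change in set B against wild-type pools was 0.58 ± 0.38 and was not called (limma, adjusted p = 0.30). It was 1.28 without tumor 81 and -0.12 without tumor 80, and such fits have no spread within set B.

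Between set B and the first tumors, 0 of 8616 probe sets (0%) were called with limma, while 932 (10.8%) had an unadjusted p under 0.05. Of the 11 probe sets, 2 had such a p: Gpx4, at 1.02 ± 0.34 (limma, adjusted p = 0.36), and Sod3, at 1.03 ± 0.46 (adjusted p = 0.43). For Gpx3 the difference was -0.12 with a 95% interval of -0.89 to 0.66. By geometric mean Gpx3 ordered as set B (1607), tumors (1741), adjacent gland (11292) and wild-type pools (42647). The neighbors set B and tumors did not differ beyond their spread. The call between the neighbors adjacent gland and wild-type pools was lost in 7 of 21 alternatives.

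Markers of other cell types were also called in tumors against wild-type pools. All 16 measured white adipocyte markers were called lower there, against 14.1% of all probe sets. Their summed intensity was 17920 to 24239 in set B, 17274 to 23480 in tumors, 150471 to 278919 in adjacent gland and 315168 to 429188 in wild-type pools, the same order without overlap that Gpx3 shows for the last 3 groups. The adipocyte genes Plin4, Cidec and Rbp4 were at the floor in every tumor. In adjacent gland against wild-type pools 2 of the 16 were called lower, against 0.453% of all probe sets. In tumors against adjacent gland 15 of 16 were called lower, against 9.04%. With lot as a fixed block 0 of these 2 calls and 14 of these 15 calls remained. The shares of all probe sets called with the block were 0.65% and 6.93%. The part of the adipocyte signal in the fall of Gpx3, Sod3, Sod1 and Cat was not tested.

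Of 5 brown adipocyte markers 4 were called lower in tumors than in wild-type pools, against 14.1% of all probe sets. Ucp1, the uncoupling protein of brown fat, was at the floor in every tumor. The sum of the 5 was 1922 to 2065 in set B, 1756 to 3155 in tumors, 4928 to 36751 in adjacent gland and 22573 to 38026 in wild-type pools, so all tumors lay below all adjacent glands and all pools. None of these 4 was called with lot as a fixed block, and 2 of the 4 kept their sign.

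Other lists held calls too in tumors against wild-type pools, where 29.9% of all probe sets were called and 14.1% were called lower. Of 15 skeletal muscle markers 12 were lower and 1 higher, of 13 fibroblast markers 12 were lower, of 10 endothelial markers 8 were lower, of 7 basal markers 6 were lower, and of 13 luminal epithelial markers 8 were higher and 1 lower. Of 4 erythroid markers 2 were lower. The sum of the 4 was 14043 to 25699 in tumors, 49708 to 68434 in adjacent gland and 51957 to 104821 in wild-type pools. Most of this sum was the globin Hba-a1, with 12536 of 14043 in tumor 22 and 102499 of 104821 in pool 42. Of 11 macrophage markers 2 were higher and 2 lower, and of 6 lymphocyte markers 2 were lower. The shares called in these lists, 36.4% and 33.3%, are near the 29.9% of all probe sets. In adjacent gland against wild-type pools 4 of the 15 muscle markers were lower, 2 of the 13 luminal markers were higher and none of the fibroblast, endothelial, basal, erythroid, macrophage, lymphocyte or brown adipocyte markers was called. Over all probe sets 1.17% were called there. With lot as a fixed block 4 of these 4 muscle calls and 1 of these 2 luminal calls remained, against 0.65% of all probe sets. With lot as a fixed block, the calls that remained in tumors against wild-type pools were 13 of 16 for white adipocytes, 12 of 13 for muscle, 6 of 12 for fibroblasts, 0 of 8 for endothelium, 3 of 6 for basal cells, 4 of 9 for luminal cells, 0 of 2 for erythroid cells, 0 of 4 for macrophages and 1 of 2 for lymphocytes. Over all probe sets 4.18% were called with the block. The part of these cell types in the results was not tested.

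The genes closest to Gpx3 in pattern over the 14 arrays, by the root mean square difference of mean-centered log2 intensity, were Cavin1 (0.37), which coats caveolae, Ghr (0.40), the growth hormone receptor, Hsd11b1 (0.44), which reactivates glucocorticoids, B3galt2 (0.47), a galactosyltransferase, and Fhl1 (0.48), a LIM domain protein. The median difference over 7739 candidate probe sets was 2.05. Cavin1 had a geometric mean of 1273 in set B, 1226 in tumors, 8744 in adjacent gland and 26279 in wild-type pools. B3galt2 was at the floor in all tumors. The median difference to Gpx3 was 1.05 for the 16 white adipocyte markers, 1.03 for the 13 fibroblast markers and 1.02 for the 7 basal markers. The nearest genes of these lists were Pparg at 0.54, Ogn at 0.56 and Cnn1 at 0.69. For endothelial markers the median was 1.22, for muscle markers 1.36 and for the 13 luminal markers 2.47. It ran between 1.54 and 1.84 for the brown adipocyte, erythroid, lymphocyte and macrophage lists.

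**Figure D4:**
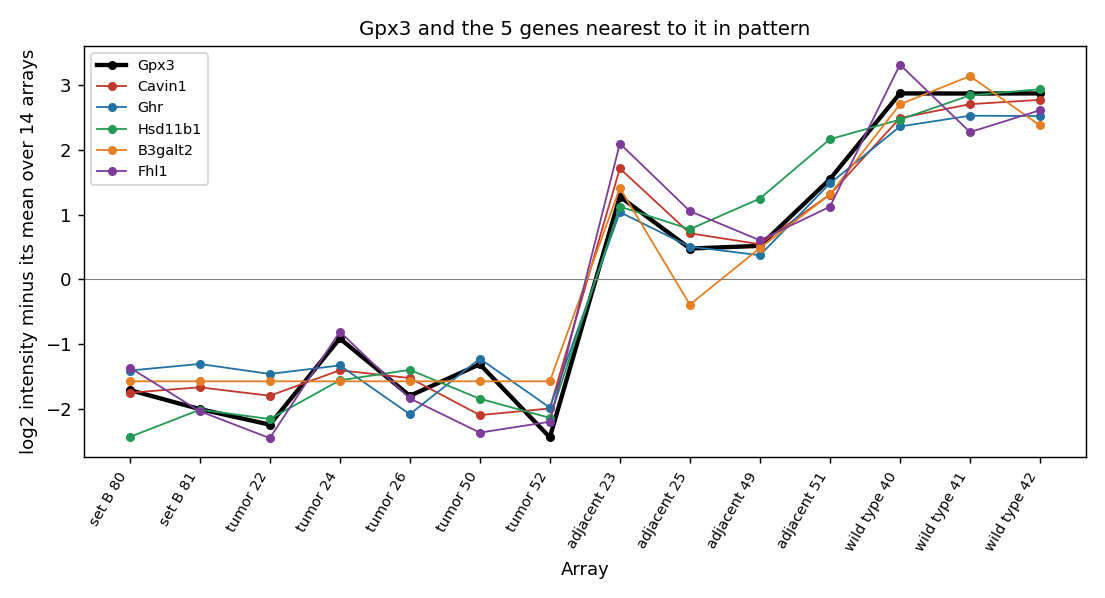
Log2 intensity of Gpx3 and its 5 nearest genes on each of the 14 arrays, each gene minus its own mean; the vertical axis is in log2 units and each point is 1 array. All 6 lines lie below 0 in the set B and first tumors and highest in the wild-type pools, and B3galt2 is flat in tumors because it lies at the floor there.

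Around the other 3 genes lower in tumors, the nearest patterns belonged to different genes. For Sod3 they were Nid2 (0.40), a basement membrane protein, and Flt1 (0.44) and Emcn (0.45), both endothelial genes. For Sod1 they were Aamdc (0.27), Fbxo45 (0.27) and Hspa9 (0.28), the mitochondrial heat shock protein. For Cat (160479_at) they were Sptbn1 (0.21), a spectrin, Acaa1a (0.24), a peroxisomal thiolase, and Vcl (0.25), or vinculin. The median differences over all candidates were 1.11 for Sod3, 0.75 for Sod1 and 0.68 for Cat.

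The other genes that make and use glutathione were lower more often than higher in tumors against wild-type pools: of 26 measured, 8 were lower and 3 higher, with a median log2 fold change of -0.35. That is 42.3% called, against 29.9% of all probe sets. For this list and those below, the shares of all probe sets called were 1.17% in adjacent gland against wild-type pools and 14.4% in tumors against adjacent gland. With lot as a fixed block 1 of these 11 calls remained, that of Gstz1, the median was -0.80, and 4.18% of all probe sets were called. Gstz1, a glutathione transferase of tyrosine breakdown, was 2621 in tumors and 27736 in wild-type pools by geometric mean (log2 fold change -3.40 ± 0.16, SE; limma, adjusted p = 5.8e-10), and with lot as a fixed block it was -3.06 (adjusted p = 0.00031). The transferases Gsta4 (-2.50) and Gstk1 (-2.19) were lower. Gpx7, a peroxidase of the endoplasmic reticulum, was at the floor in every tumor and at least 4.20-fold lower there. Gpx2, an epithelial glutathione peroxidase, was higher at 1.94 ± 0.64 (limma, adjusted p = 0.031). Adjacent gland against wild-type pools had 1 call among the 26, Gstz1 at -1.09 (adjusted p = 0.0082), which was lost with lot as a fixed block (-0.92, limma, adjusted p = 0.32). In tumors against adjacent gland Gstz1 (-2.31) and Gsta4 (-2.13) were lower and the glutaredoxin Glrx (0.82) was higher; of these 3 calls that of Gstz1 remained with the block.

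Of 12 measured genes of the thioredoxin and peroxiredoxin system, 3 were higher and 2 lower in tumors against wild-type pools, with a median of 0.04; this is 41.7% called, against 29.9% of all probe sets. Prdx4, the peroxiredoxin of the endoplasmic reticulum, was higher (1.11), as were the thioredoxin reductase Txnrd3 (1.16) and the methionine sulfoxide reductase Msrb1 (0.64). Nucleoredoxin, Nxn (-1.73), and the mitochondrial reductase Txnrd2 (-1.11) were lower. Of the 5 calls 1 remained with lot as a fixed block, that of Nxn (-2.59, limma, adjusted p = 0.043). None of the 12 was called in adjacent gland against wild-type pools. In tumors against adjacent gland Msrb1 (0.75) and Prdx4 (0.64) were higher and Nxn (-1.67) was lower, and with the block Nxn alone of these 3 was called. Of 10 selenoprotein and selenium supply genes, Selenos (0.94), a selenoprotein of the endoplasmic reticulum, was higher and Selenbp1 (-1.07), a selenium-binding protein, was lower. These are 20% of the list, under the 29.9% of all probe sets called. Against adjacent gland Dio2, a deiodinase, was lower in tumors (-1.38). None of these 3 selenoprotein list calls remained with lot as a fixed block.

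The NRF2 list had 24 measured genes, of which 3 were higher and 6 lower in tumors against wild-type pools, with a median of -0.10. That is 37.5% called, against 29.9% of all probe sets. Some of these genes also stand in the 2 lists above. Hmox1, which degrades heme, was 11083 in tumors and 3137 in wild-type pools (log2 fold change 1.82 ± 0.23, SE; limma, adjusted p = 1.9e-05), and the quinone reductase Nqo1 was higher at 1.72 ± 0.51 (adjusted p = 0.019). The lower genes named by the rule were enzymes of carbon metabolism, Tkt (-2.16), Me1 (-1.60) and Idh1 (-1.47), of which Me1 and Idh1 make NADPH and Tkt is the transketolase of the pentose phosphate pathway. In tumors against adjacent gland Nqo1 (2.28) and Hmox1 (1.22) were higher and Tkt (-1.53), Taldo1 (-0.85) and Idh1 (-0.78) were lower; of the 6 genes called there, Tkt was called with lot as a fixed block. None of the 24 was called in adjacent gland against wild-type pools, and none in tumors against wild-type pools with lot as a fixed block, where Hmox1 was 1.37 (limma, adjusted p = 0.12) and 4.18% of all probe sets were called.

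Of 11 metal handling genes 3 were called in tumors against wild-type pools, all higher. This share, 27.3%, is near the 29.9% of all probe sets called; the list median was 0.50, and -0.13 with lot as a fixed block. The copper exporter Atp7a (2.32) and the copper-carrying ferroxidase Cp (1.56) were higher, as was the transferrin receptor Tfrc (1.12), which was -0.13 with the block. With it 1 of the 3 calls remained, that of Atp7a (2.46, limma, adjusted p = 0.041). Tumors were also above adjacent gland in Cp (1.24) and in Atp7a, which was 1.99-fold higher; of these, Cp was called with the block. Of 8 genes whose products form superoxide or peroxide, 1 was higher and 2 were lower in tumors against wild-type pools. That is 37.5% called, against 29.9% of all probe sets. Xanthine dehydrogenase, Xdh, had a geometric mean of 4087 in tumors, 3350 in adjacent gland and 297 in wild-type pools. It was higher in tumors than in wild-type pools (log2 fold change 3.78 ± 0.60, SE; limma, adjusted p = 0.00021) and higher in adjacent gland than in wild-type pools (3.49 ± 0.63, adjusted p = 0.015). Both calls held with lot as a fixed block, at 5.49 and 4.56 (limma, adjusted p = 0.00084 and 0.0033). Aox1, an aldehyde oxidase, was lower in tumors than in wild-type pools (-3.64) and than in adjacent gland (-2.60), with 3 of the 14 arrays at the floor, and the monoamine oxidase Maoa was lower than in wild-type pools (-0.88). The calls of Aox1 and Maoa against wild-type pools were lost with lot as a fixed block, and that of Aox1 against adjacent gland remained.

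Of 15 measured peroxisomal genes, the compartment of catalase, 5 were lower and 0 higher in tumors against wild-type pools, with a median of -0.45; that is 33.3% called, against 29.9% of all probe sets. The block left 1 of the 5 calls, that of Abcd2 (-4.30, limma, adjusted p = 0.0046). Abcd2, a fatty acid transporter of the peroxisome, was at the floor in every tumor, against 3428 in wild-type pools, at least 33.8-fold lower (limma, adjusted p = 4.1e-08). Crat (-2.14), Hsd17b4 (-1.59), Scp2 (-1.15) and Acaa1a (-0.78), which act on acyl chains or acyl groups, were lower. Of these 15, 1 was called in adjacent gland against wild-type pools, Abcd2 at -1.62 (limma, adjusted p = 0.044), which was lost with the block (-1.16, adjusted p = 0.84). In tumors against adjacent gland Abcd2 was lower, being at the floor in every tumor against 1119 in adjacent gland, Crat (-1.29) and Hsd17b4 (-0.81) were lower, and Pex7 (0.74), a receptor for protein import, was higher; of these 4 calls those of Abcd2 and Crat remained with the block.

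**Figure D5:**
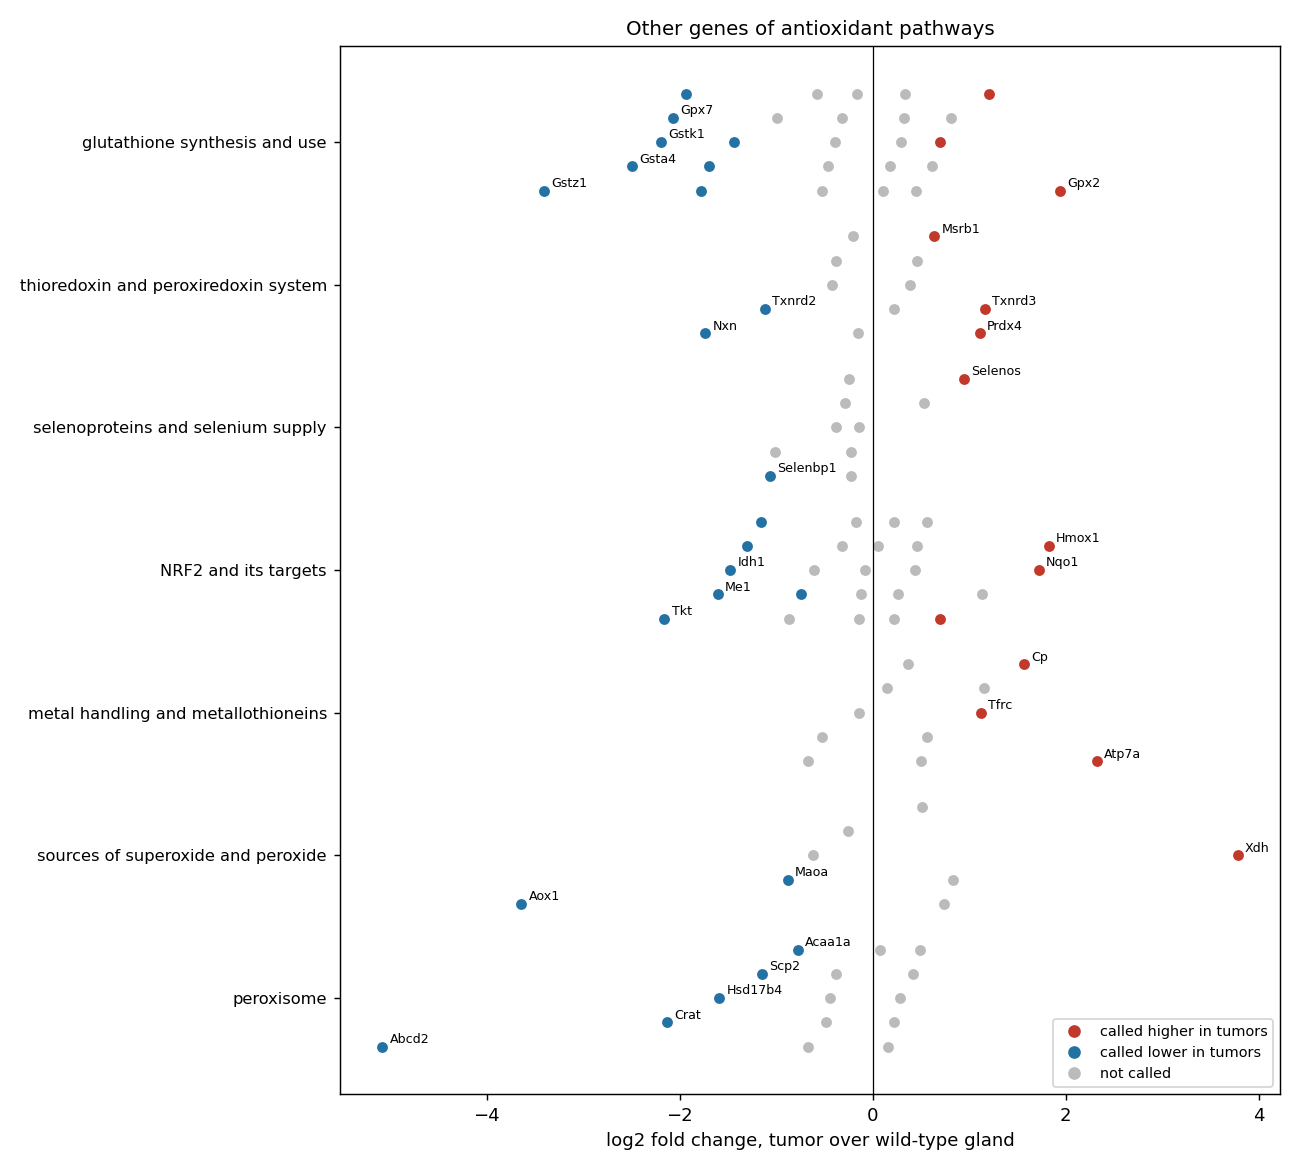
Log2 fold change of each measured gene of 7 lists in tumors over wild-type pools, with 1 point for each gene, red for called higher, blue for called lower and grey for not called at an adjusted p under 0.05 in limma; up to 5 called genes of each list are named, and the vertical offset within a list has no meaning. Xdh lies farthest to the right at 3.78 and Abcd2, at the floor in tumors, farthest to the left.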

How the data were processed

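Values are intensities on a linear scale, 1 for each probe set and array, deposited by the authors in the table of the series. Not given in the sources used here is the software that made them. Since the 2% trimmed mean was 1501 on every array, the table was taken as scaled already. A floor of 101 was set at the 20th pooled percentile (101.42), lower intensities were raised to it, and log2 was taken. The 66 controls were dropped, and a probe set stayed if on 3 or more arrays it exceeded that array's 40th percentile, which left 8616.

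A linear model over the 14 arrays, with a mean for each of 4 groups, was fitted with limma (3.58.1; R 4.3.3), using lmFit and eBayes with a trend. p-values are two-sided and adjusted by Benjamini and Hochberg over all 8616 probe sets in each of the 5 comparisons. The fit was tested on simulated data. The number of arrays sets the precision. The platform annotation gave gene names: 10855 probe sets had 1 gene, 396 several and 1237 none, and 10839 symbols were updated by gene number to GRCm38.p6. In lists, a gene is represented by its brightest probe set.

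All probe sets of the 10 genes are reported. From each list, up to 5 called genes by size of change in each comparison are named, and for likeness the 5 genes nearest to Gpx3 and the 3 nearest to each other gene called in tumors. Promoter sequences are from RefSeq. The genes and lists were chosen with earlier results of these data known. Alternatives covered the floor, the filter, scaling, array lot, the variance model, the arrays in the fit and leaving out each array.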

Additional observations from a re-analysis of the deposited data

Results flagged for a closer look

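Over the 13 probe sets tested, those shared by Prdx1 and Gm21399 included, and the groups of 4 or 5 arrays, 1 value stood far from the rest of its group. Tumor 50 had an intensity of 1141 for probe set 161877_f_at of Cat, while the nearest of the other 4 tumors had 2796 and the farthest 3406. In all, 26 groups of values were examined in this way, and chance alone sets apart about 1 in 20 groups. Tumor 50 is on lot 2004097; the other tumor of that lot, tumor 52, had 2822.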

How the results depend on the processing

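Of 10 called results for the antioxidant enzymes, 196 values under alternatives all kept their direction and 153 were still called. Of 45 results not called, 863 of 866 alternative values were not called, and 88 had the other sign. Counts of called probe sets moved with array lot and with single arrays. Tumors against wild-type pools gave 2574, but 360 with lot as a fixed block, 921 with lots 2004097 and 2004907 as 1 block, 0 within those lots read as 1, and 1759 to 2509 when 1 array was left out. Adjacent gland against wild-type pools gave 101, but 53 with no filter, 56 with lot as a fixed block, 26 with the 2 lots as 1 block, 28 from only the 2 groups, 0 within lot 2004907, 0 within the 2 lots read as 1, 191 with a term for lot 2001815, and 14 to 202 without 1 array. Tumors against adjacent gland gave 1239, but 597 with lot as a fixed block, 209 within lot 2001815, 457 within the 2 lots read as 1, and 878 to 1375 without 1 array. Set B gave 1998 against wild-type pools, or 1051 to 1659 without 1 array. Set B against the first tumors gave 0, but 2 with a floor at the 40th percentile, 1 with no filter, 1 with the lot 2001815 term, and 0 to 2 without 1 array. The fits within lots also had fewer arrays, and the cause of these shifts was not tested. The lot 2001815 term and the fits within the 2 lots read as 1 were chosen after seeing the data. Median scaling moved the median of all probe sets in adjacent gland against wild-type pools to -0.10, against 0.07 as deposited, and the share of calls that were higher to 34.8%, against 61.4%. Set B could not be fitted with lot as a fixed block. No paired analysis was possible because the groups share no replicate numbers and the labels tie no adjacent gland to a tumor.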

Other observations

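The 3 wild-type pools gave nearly the same Gpx3 intensity, between 42612 and 42665. Pools 41 and 42 have the same age, strain share and array lot, and pool 40 differs from them in each. The range of the 3 pools was 0.0018 on the log2 scale, against a median range of 0.47 over all 8616 probe sets. With Gpx3 included, 39 probe sets were as tight or tighter. Among 97 probe sets of similar level in the pools, Gpx3 was the tightest and their median range was 0.32. There were 61 probe sets brighter than Gpx3 on all 3 pools.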
